A study of Mus musculus with 2 samples.

Results

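Scavenger receptors are a functional group of membrane proteins through which macrophages bind modified lipoproteins, microbes, dead-cell debris and haemoglobin complexes and take them up for delivery to lysosomes. The genes described here were 8 receptors chosen by name, namely Marco, Msr1, Cd36, Scarb1, Scarb2, Stab1, Cd163 and Lrp1, and every probe bearing one of these names was used, whatever its value. They had 12 probes among the 55681 on each array. Of the 8 genes, 7 were well above background on both arrays (10 of the 12 probes), out of 12422 genes measured on both arrays in all, and Cd163 was not well above background on either.

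Macrophages had been grown from mouse bone marrow of the genotypes c-Maf-/- and c-Maf+/-, so the cells set against those lacking c-Maf still carried 1 copy of the gene and not 2. Both were cultured for 5 days with M-CSF supplied as CMG14-12 culture medium, and both then received LPS at 100 ng/ml for 5 h, so no untreated cells enter the comparison. Each genotype was measured on 1 array of a single slide, hybridised with Cy3-labelled RNA, and the labels used here do not say how many mice gave the marrow or which part of the gene was removed. The comparison addresses how LPS-treated macrophages that lack c-Maf, a basic leucine zipper transcription factor, differ in gene expression from those with 1 copy. With 1 array per genotype no test was possible, so each difference below is between these arrays and not shown for the genotypes.

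Values are background-subtracted processed signals, in arbitrary brightness units, and each log2 difference is the c-Maf-/- value less the c-Maf+/- value after each array was set to its own 75th percentile (a signal of 296 on the c-Maf-/- array, against 291 on the c-Maf+/- array). Levels of different probes cannot be compared, since probes differ in how strongly they bind, so the genes are compared by their differences and not by their signals. The errors printed with log2 differences are the scanner software's own error model, which assumes a 10% error in proportion to the signal (entered as 0.1) and gave 0.20 for most probes. Each probe of the 8 genes was a single spot. On the same arrays, 227 probes with at least 8 spots had a median SD of 0.07 in their log2 difference, with a 95th percentile of 0.36. Over the probes of a gene, for 3454 genes with at least 2 measured probes, the median SD was 0.09 and the 95th percentile 0.48. None of these errors covers the variation between cultures or mice.

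The targeted gene went with the labels, although whether its probes lie in the deleted part is not known. The brighter Maf probe had a processed signal of 12.6 on the c-Maf-/- array, which was not well above background, against 15101 on the c-Maf+/- array. Averaged over both probes on the log2 scale, Maf was lower in c-Maf-/- cells by at least 120-fold. This is a mean of the limits of the probes and not a limit that each reaches. The dimmer probe had 5.96 in c-Maf-/- cells, not well above background, against 541 in c-Maf+/- cells. The 10 macrophage markers tried were all well above background on both arrays, with a median log2 difference of -0.21. They did not go 1 way. Mertk (-1.91), a receptor for apoptotic cells, was the only one past 2-fold, as were 3.16% of all measured genes. It was read by 1 probe that was dim, with a processed signal of 73.5 in c-Maf-/- cells, against 271 in c-Maf+/- cells. Aif1 (-0.61) and Fcgr1 (-0.58) were next lowest, Lyz2 (0.58) and Cd14 (0.46) were highest, and Csf1r was at -0.03.

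The class A receptors are trimeric proteins with a collagen-like stalk. Marco binds bacteria and unopsonised particles, and Msr1 takes up acetylated and oxidised low density lipoprotein as well as bacterial products. The probes that measured them are shown because the highest difference among the receptors rests on the single Marco probe, whereas Msr1 was read by a pair of probes at separate places. The letters are lower case, read along the transcript. The Msr1 probe at the upper coordinate is printed whole and the first 30 bases of 60 are given for the other probes.
Marco probe: gagcccgagaggtcatcagtgtgtccccag
Msr1 probe, upper: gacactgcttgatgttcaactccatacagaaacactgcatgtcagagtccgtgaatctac
Msr1 probe, lower: aagtcatcttacatccaaaactacacgtat
The Marco probe was placed at chr1:122371115-122371134 in mouse build mm9, on the minus strand, a listed span of 20 bases for a probe of 60. The Msr1 probes lay at chr8:40709296-40709355 and chr8:40689158-40689217, also on the minus strand. An mm9 annotation was not used here, so exons and untranslated parts are not stated for any probe.

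Marco had a processed signal of 4959 on the c-Maf-/- array, against 2412 on the c-Maf+/- array. The log2 difference was 1.01 ± 0.20 (error-model SE), or 2.02-fold higher in c-Maf-/- macrophages, which placed it just past the 2-fold threshold. It was the only one of the 7 measured genes at least 2-fold higher and 0 were at least 2-fold lower. Of all genes measured, 1.42% were at least 2-fold higher, 1.74% at least 2-fold lower and 3.16% past 2-fold in either direction. The call was marginal: the difference was 0.99 with normexp background correction, 0.99 without background subtraction and 0.99 with median scaling, all within 2-fold. Of the 1000 genes nearest to Marco in mean signal, 13 had a difference farther from 0. The 167 well-measured spots within 10 rows and columns of the Marco spot had a median log2 difference of -0.04, so its surroundings on the array were not raised.

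Msr1 went the other way by a small amount. Its upper probe had a processed signal of 8514 in c-Maf-/- cells, against 10567 in c-Maf+/- cells. Its lower probe had 8835 in c-Maf-/- cells, against 10556 in c-Maf+/- cells. The log2 differences of the probes were -0.34 and -0.28, and their mean was -0.31 ± 0.14 (error-model SE, 2 probes), or 1.24-fold lower in c-Maf-/-. The SD over the pair was 0.04, although the probes sit at different places in the gene. The log2 differences of Marco and Msr1, the class A genes among the 8 receptors, were apart by 1.32 ± 0.25 (error-model SE).

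**Figure D1:**
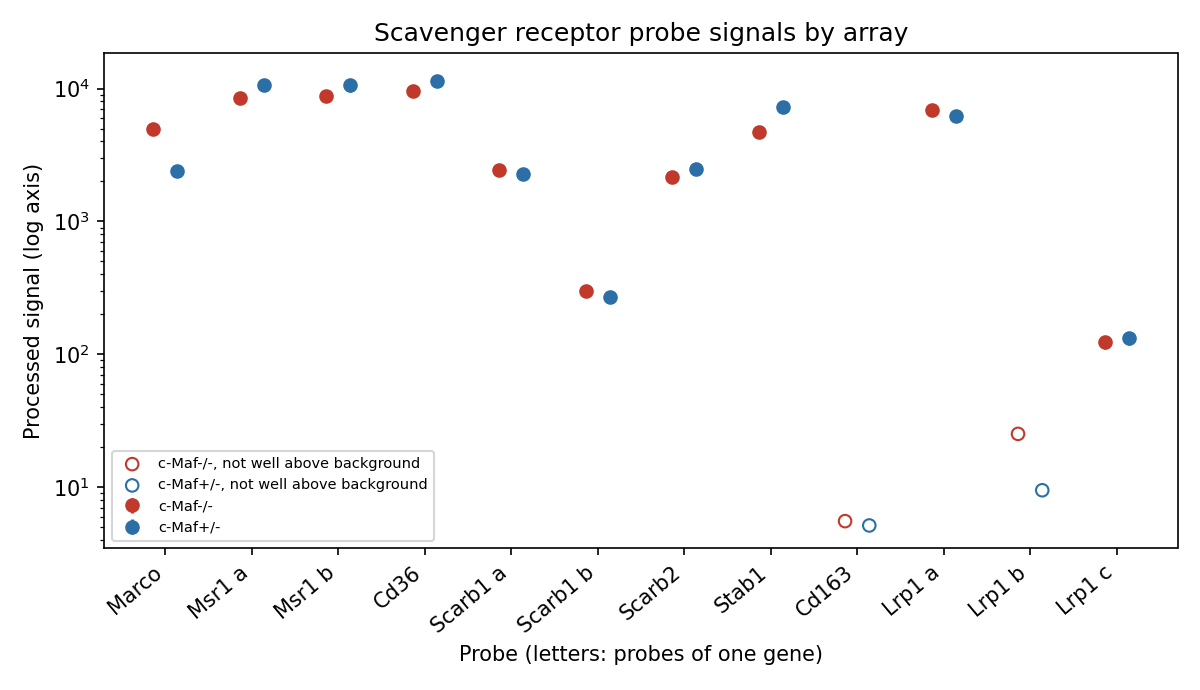
Processed signal of each scavenger receptor probe (vertical axis, logarithmic, arbitrary units) on the c-Maf-/- array (left of each pair) and the c-Maf+/- array (right). Bars are the software's error, mostly smaller than the points, and open circles are probes not well above background on either array. The Marco pair is set widest apart among the filled points, with 4959 in c-Maf-/- cells, against 2412 in c-Maf+/- cells, and Cd163 lies near 5 on both arrays.

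The class B receptors cross the membrane at both ends of the chain. Cd36 takes up oxidised low density lipoprotein and long-chain fatty acids and binds thrombospondin. Scarb1 is the receptor for high density lipoprotein, from which it takes cholesteryl esters. Scarb2 is a lysosomal membrane protein that carries the enzyme glucocerebrosidase to lysosomes. Scarb2 was read by a probe whose 60 bases were spread over 1334 bases of the genome, at chr5:92877611-92878944 in mm9 on the minus strand, so it crosses at least 1 intron and reads spliced transcripts. It is shown whole for that reason.
Scarb2 probe: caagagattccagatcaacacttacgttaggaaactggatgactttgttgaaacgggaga

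All 3 class B genes lay well within 2-fold. Cd36, read by a probe at chr5:17288600-17288659, had a processed signal of 9623 in c-Maf-/- cells, against 11401 in c-Maf+/- cells. Its log2 difference was -0.27 ± 0.20 (error-model SE), or 1.21-fold lower in c-Maf-/-. Scarb2 had a processed signal of 2154 in c-Maf-/- cells, against 2487 in c-Maf+/- cells, with a log2 difference of -0.23 ± 0.20. Both values were little larger than their error, and 35.8% of all measured genes lay farther from 0 than Cd36 and 41.3% farther than Scarb2.

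Scarb1 was close to 0 on each of its probes. The probe at chr5:125757483-125757542 had a processed signal of 2429 in c-Maf-/- cells, against 2268 in c-Maf+/- cells, and the probe at chr5:125761540-125761599 had 301 in c-Maf-/- cells, against 269 in c-Maf+/- cells. Their log2 differences were 0.07 and 0.13, with a mean of 0.10 ± 0.15 (error-model SE, 2 probes), within the error of 0. The log2 differences of Scarb1 and Cd36, as Cd36 minus Scarb1, were apart by -0.37 ± 0.25, and those of Cd36 and Scarb2 by -0.04 ± 0.29.

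Stab1 had the lowest difference of the 7 measured genes. It encodes stabilin, a large class H receptor of alternatively activated macrophages and sinusoidal endothelium that clears SPARC and modified lipoproteins. The first 30 bases of its single probe (chr14:31952288-31952347, minus strand, mm9) are shown because this difference rests on it alone.
Stab1 probe: ctcaaggtcaaatgatgagctggaatgaag
Its signal was 4701 in c-Maf-/- cells, against 7236 in c-Maf+/- cells, with a log2 difference of -0.65 ± 0.20 (error-model SE), or 1.57-fold lower in c-Maf-/-. It was within 2-fold but at least 1.5-fold lower, as were 6.52% of all measured genes, while Marco was the single member at least 1.5-fold higher, as were 5.37%. Of the 1000 genes nearest to Stab1 in mean signal, 61 were farther from 0. The 182 well-measured spots around its spot had a median of -0.05. The difference ran from -0.67 to -0.50 over 9 alternative settings, and the 1.5-fold call ended with quantile normalization, at -0.58, just short of it, and with spike-in scaling, at -0.50.

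Cd163 is the receptor for haptoglobin-haemoglobin complexes, in class I. Its single probe, at chr6:124270436-124270495 in mm9 on the plus strand, is printed whole because the gene is a standard macrophage marker that these arrays did not show.
Cd163 probe: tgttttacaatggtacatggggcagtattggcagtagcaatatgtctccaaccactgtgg
Its signal was 5.55 in c-Maf-/- cells, against 5.15 in c-Maf+/- cells, not well above background on either array. The lowest signal that counted as well above background was 24.2 for c-Maf-/- cells, against 22.3 for c-Maf+/- cells. No fold is given for Cd163. Whether this probe responds to its transcript was not tested.

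Lrp1 encodes a large endocytic receptor of class L that takes up protease-inhibitor complexes and apolipoprotein E. It had 3 probes, shown because they did not read alike and lie far apart, all on the minus strand of chromosome 10 in mm9. The first and second are given by their first 30 bases, and the third by bases 31 to 60, with the polyadenylation hexamer in capitals.
Lrp1 probe, chr10:126975573-126975632: tggggttagttcaggggaggtggagtcctc
Lrp1 probe, chr10:127037088-127037147: agctgaagtcaggatttggtagcaaacagg
Lrp1 probe, chr10:127026228-127026287: ttggtgtgtcaggcccttcacAATAAAgct
The probe at the lowest coordinates had a processed signal of 6863 in c-Maf-/- cells, against 6172 in c-Maf+/- cells, with a log2 difference of 0.13 ± 0.20 (error-model SE). The probe with the hexamer, which the deposited annotation assigns to a cDNA clone from bone marrow macrophages, had 124 in c-Maf-/- cells, against 132 in c-Maf+/- cells, with a log2 difference of -0.12 ± 0.23. Their mean was 0.01 ± 0.15, and 98.4% of all measured genes lay farther from 0. The probe at the highest coordinates had 25.2 in c-Maf-/- cells, against 9.48 in c-Maf+/- cells and was not well above background on either array, so it entered no difference.

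**Figure D2:**
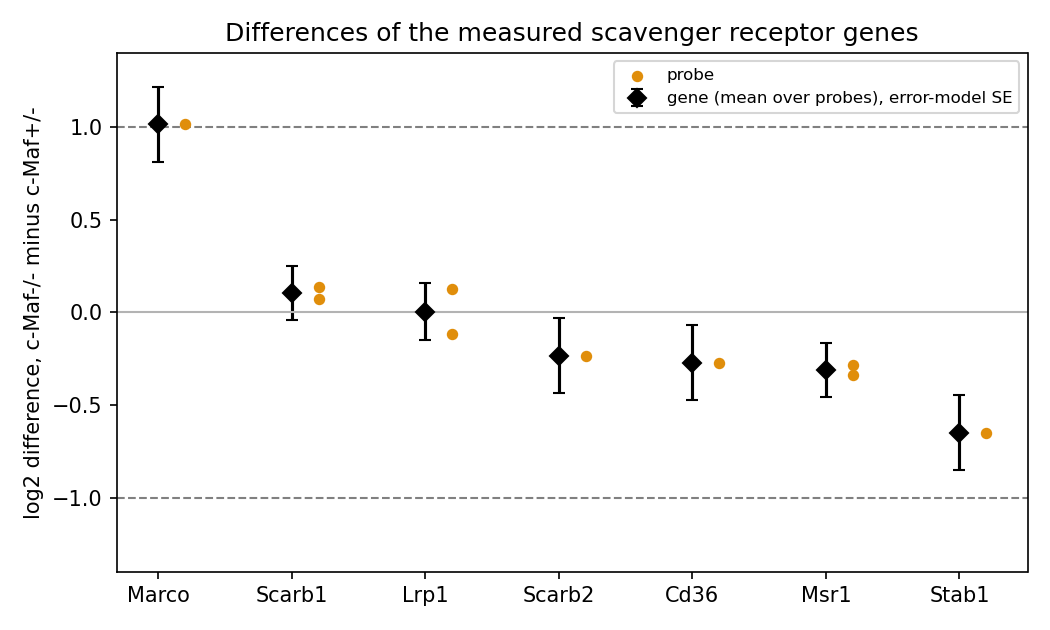
Log2 difference (c-Maf-/- minus c-Maf+/-, vertical axis) of the 7 measured scavenger receptor genes, from highest to lowest. Diamonds are gene values with error-model SE, small points are single probes, and dashed lines mark 2-fold. Marco lies at 1.01 and Stab1 at -0.65, with the other 5 genes between -0.31 and 0.10.

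Set side by side, the differences ran in the order Marco, Scarb1, Lrp1, Scarb2, Cd36, Msr1 and Stab1, over a range of 1.66 on the log2 scale. Neighbours in this order from Scarb1 to Msr1 did not differ beyond their errors. Of the 7 genes, 3 had a value above 0 and 4 below, and 46.2% of all measured genes were above 0. The median was -0.23, against a median of -0.02 over all measured genes. The difference of Msr1 was -0.16 with spike-in scaling, which shifted every gene upward and brought the median over all genes to 0.12 and the share of 2-fold calls on the higher side to 65.9%, against 45.04% as reported.

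**Figure D3:**
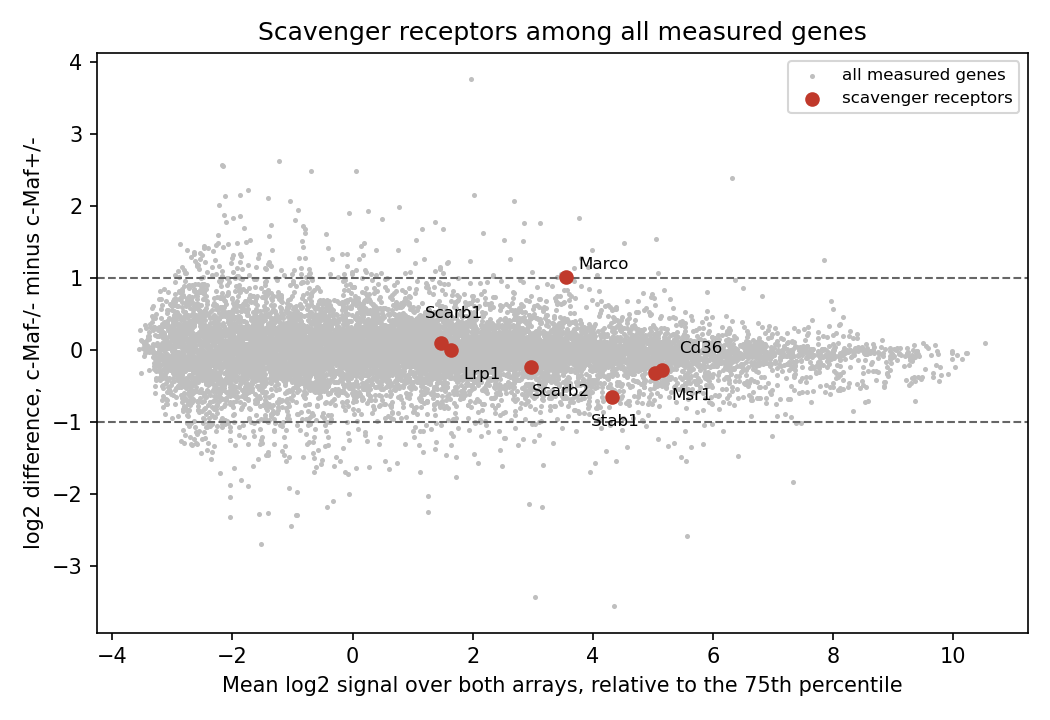
Log2 difference (c-Maf-/- minus c-Maf+/-) against the mean log2 signal over both arrays relative to the 75th percentile, for the 12422 measured genes (grey) and the 7 measured scavenger receptors (red). Dashed lines mark 2-fold. Marco sits at the upper line among bright genes, and the other members lie inside the lines.

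The remaining genes of the scavenger receptor classes were taken as a list of 20, of which 13 were measured. Mrc1, the mannose receptor and a class E member, stood far apart from the rest, with a processed signal of 1080 in c-Maf-/- cells, against 4661 in c-Maf+/- cells and a log2 difference of -2.14 ± 0.20 (error-model SE). It was the only one of the 13 past 2-fold, as were 3.16% of all measured genes. Of the 13, 10 were below 0 and 3 above, with a median of -0.20, while 46.2% of all measured genes were above 0. Next came Scarf1 (0.82 ± 0.26), an endothelial receptor for modified lipoprotein, Ssc4d (0.80 ± 0.23), a protein with cysteine-rich scavenger receptor domains, and Olr1 (-0.79 ± 0.25), the lectin-like receptor for oxidised lipoprotein. These 3 were dim: Scarf1 had a processed signal of 106.8 in c-Maf-/- cells, against 59.5 in c-Maf+/- cells, and with normexp its difference was 0.42 and that of Olr1 -0.39. Ssc4d turned to -1.01 when its second, dim probe was kept. Scara3, Scara5, Megf10, Stab2, Cd163l1, Ager and Lrp2 were not well above background on either array.

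Among 20 ligands, adaptors and partners of the receptors, 18 were measured, with 9 above 0 and 9 below and a median of 0.01. The list held 2 genes that were higher in c-Maf-/- cells by at least 2-fold and 0 that were lower by as much. Of all measured genes, 1.42% were at least 2-fold higher, 1.74% at least 2-fold lower and 46.2% above 0. Thbs1, which encodes thrombospondin, a ligand of Cd36, had a processed signal of 6424 in c-Maf-/- cells, against 2598 in c-Maf+/- cells, with a log2 difference of 1.28 ± 0.20. Hp encodes haptoglobin, a part of the haptoglobin-haemoglobin complexes that Cd163 binds. It had a processed signal of 105196 in c-Maf-/- cells, against 43224 in c-Maf+/- cells, with a log2 difference of 1.26 ± 0.20. Hmox1, the haem oxygenase that breaks down haem taken up by the Cd163 route, was at 0.86 over 2 probes, and 1.01 with spike-in scaling. The fourth, Gulp1, an adaptor of stabilins and Lrp1, was at 0.55 ± 0.26. The chaperone of Lrp1, Lrpap1, was at 0.10 and the ligand gene Apoe at -0.24, while A2m and Pdzk1 were not well above background on either array.

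Among 21 genes of lipoprotein receptors and cholesterol handling, 20 were measured, with 10 above 0 and 10 below and a median of -0.02. Of these, 0 were past 2-fold, against 3.16% of all measured genes. Nceh1 (-0.56 ± 0.20) and Lipa (-0.49 ± 0.20), which hydrolyse stored and lysosomal cholesteryl esters, were the lowest, and Pltp, the phospholipid transfer protein, and Lrp6, a Wnt co-receptor, were the highest, each at 0.48. The nuclear receptor gene Pparg, a regulator of Cd36, was at -0.32, Nr1h3 at -0.28 and the efflux transporter gene Abca1 at 0.28.

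**Figure D4:**
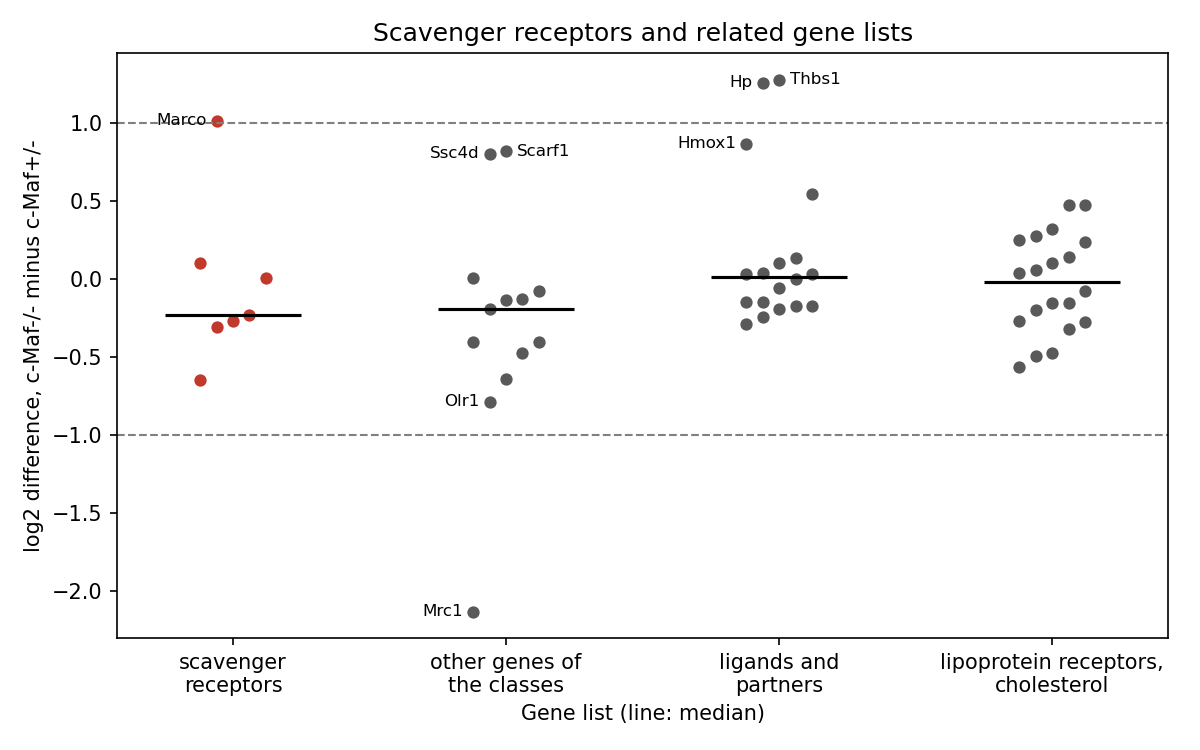
Log2 difference (c-Maf-/- minus c-Maf+/-) of each measured gene in the scavenger receptors (red) and in 3 related lists (grey), with the median of each list as a line and 2-fold as dashed lines. The medians lie at -0.23, -0.20, 0.01 and -0.02 from left to right, and Mrc1 lies lowest at -2.14.

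Other cell types could carry some of these receptors, and in whole cultures fewer cells of a type and less RNA per cell cannot be told apart. Endothelial cells carry Stab1, Scarf1 and Cd36. Of 8 endothelial markers, Tek, Emcn, Stab2 and Lyve1 were not well above background on either array. The 3 measured on both arrays had a median of -0.01. Vwf was at 0.16, Pecam1 at -0.01 and Kdr at -0.40, with the Kdr probes at -0.95 and 0.15. Cdh5, the endothelial cadherin, had a signal of 28.9 in c-Maf-/- cells, which was not well above background, against 65.8 in c-Maf+/- cells. After scaling it was 2.32-fold lower in c-Maf-/- cells, a ratio that rests on a dim spot and is not a lower limit. Summed signals here and below were not scaled between arrays and include probes not well above background. Probes that bind strongly weigh most in them. The summed signal of the 8 markers was 9473 in c-Maf-/- cells, against 9165 in c-Maf+/- cells, most of it from Kdr. Without Kdr it was 997 in c-Maf-/- cells, against 1018 in c-Maf+/- cells. Adipocytes carry Cd36 and Scarb1. Of 8 adipocyte and stromal markers, Adipoq, Plin1, Cidec and Cxcl12 were not well above background on either array. The 4 measured were Dcn (-0.95), Col1a1 (-0.88), Col1a2 (-0.32) and Lepr (0.11), none past 2-fold, with a median of -0.60. The summed signal of the list was 5686 in c-Maf-/- cells, against 5473 in c-Maf+/- cells, most of it from Lepr. Without Lepr it was 503.7 in c-Maf-/- cells, against 741.7 in c-Maf+/- cells. Platelets carry Cd36, and 6 of 7 measured erythroid and platelet markers were above 0, as were 46.2% of all measured genes, with a median of 0.72. Most of the 6 were dim, such as Hba-a1, with 55.4 in c-Maf-/- cells, against 30.7 in c-Maf+/- cells. Ppbp (0.79) was brighter, with 986 in c-Maf-/- cells, against 562 in c-Maf+/- cells. The summed signal of the list was 57647 in c-Maf-/- cells, against 58907 in c-Maf+/- cells, almost wholly from Pf4. Without Pf4 it was 1432 in c-Maf-/- cells, against 839.6 in c-Maf+/- cells. All 9 measured neutrophil markers were below 0, 5 of them at least 2-fold, as were 1.74% of all measured genes. The summed signal of that list was 56491 in c-Maf-/- cells, against 101968 in c-Maf+/- cells. Of 7 measured dendritic cell markers 5 were below 0, with a median of -0.60, while 46.2% of all measured genes were above 0. Fscn1 (-1.50) and Itgax (-1.09) were at least 2-fold lower, as were 1.74% of all measured genes. Both were dim. Fscn1 had a signal of 112 in c-Maf-/- cells, against 312 in c-Maf+/- cells. Itgax had 131 in c-Maf-/- cells, against 275 in c-Maf+/- cells. The summed signal of the dendritic cell list was 46615 in c-Maf-/- cells, against 44697 in c-Maf+/- cells, almost wholly from Siglech. Without Siglech it was 2623 in c-Maf-/- cells, against 3118 in c-Maf+/- cells. The part of the endothelial, stromal, neutrophil, dendritic cell and platelet markers in the receptor differences was not tested.

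The promoters of the genes with the highest and the lowest difference were searched for the site that Maf proteins bind, the Maf recognition element. RefSeq promoter sequences of build GRCm38.p6 were found for 6 of the 8 genes, all but Msr1 and Scarb1, and the 250 bases before the start were read on both strands. The promoters of Marco (chr1:120505025-120505274) and Stab1 (chr14:31168642-31168891), both on the minus strand, are printed with the core TGCTGA in capitals.
Marco promoter: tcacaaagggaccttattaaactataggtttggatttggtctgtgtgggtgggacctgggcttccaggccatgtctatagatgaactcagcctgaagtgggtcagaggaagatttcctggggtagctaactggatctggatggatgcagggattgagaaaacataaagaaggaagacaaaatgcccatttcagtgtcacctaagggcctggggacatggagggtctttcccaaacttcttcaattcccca
Stab1 promoter: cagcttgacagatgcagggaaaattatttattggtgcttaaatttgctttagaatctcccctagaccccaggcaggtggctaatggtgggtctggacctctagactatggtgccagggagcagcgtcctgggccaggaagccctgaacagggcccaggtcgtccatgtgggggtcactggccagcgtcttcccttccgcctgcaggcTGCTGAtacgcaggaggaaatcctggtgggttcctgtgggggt
The core TGCTGA occurred once in each of the promoters of Stab1, Cd36 and Scarb2 and not in those of Marco, Cd163 and Lrp1, and 18.02% of the 27025 genes in the table had it in these bases. The longer TGCTGAC, which contains the core, occurred in 0 of the 6 and in 4.31% of all genes. The AP-1 motif TGANTCA, which overlaps a full Maf element, also occurred in 0 of the 6 and in 7.82% of all genes. The nuclear receptor motif AGGTCA occurred in the Cd36 promoter alone, against 15.8% of all genes, and the E-box CACGTG in none of the 6, against 6.86%. Such matches describe letters in these windows only.

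**Figure D5:**
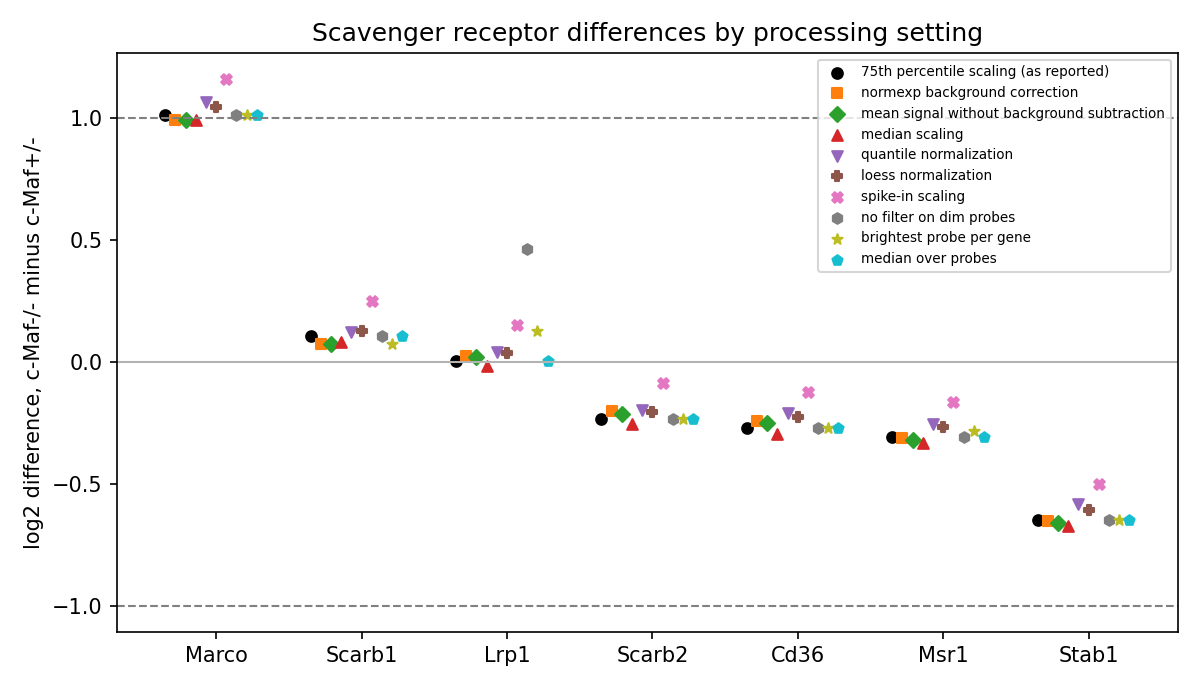
Log2 difference (c-Maf-/- minus c-Maf+/-) of the 7 measured scavenger receptor genes under the reported setting (black circles) and 9 alternatives (other symbols), with 2-fold as dashed lines. Marco lies between 0.99 and 1.16, on either side of the line, and Stab1 between -0.67 and -0.50, and Lrp1 is highest, at 0.46, without the filter on dim probes.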

How the data were processed

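The deposited values are spot intensities that the authors obtained with Agilent Feature Extraction 10.7.3.1, array design 028005, per the file headers. The processed intensity was background-subtracted and detrended within each array and not normalized between arrays, per the file headers. The deposited flags for detection and outliers were also used. From 50 ng of RNA per array, 44.9% of spots were well above background for c-Maf-/- cells and 45.3% for c-Maf+/- cells, and 0 were saturated. Here log2 intensities were set to each array's 75th percentile of non-control spots, outlier spots were dropped, and a gene was the mean of its probes well above background on both arrays. Names were updated through RefSeq accessions and symbols (31817 of 55681 probes). Genes were counted at 2-fold, with no test and no p-value. Named genes are all members, the 4 genes of each related list farthest from 0 and those past 2-fold. A listed gene is not reported here. Others are named as examples chosen after their values were seen. The members and lists were chosen with earlier results of these data known. The alternatives used limma 3.58.1 in R 4.3.3 for normexp (offset 50), quantile and loess.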

Additional observations from a re-analysis of the deposited data

How the results depend on the processing

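No paired analysis was possible because each genotype had 1 array, and for the same reason no array could be left out. Of 63 member values under 9 alternatives, 61 moved by less than their error-model SE, and the sign changed once, for Lrp1 with median scaling (-0.02). Part of this count was fixed in advance. No member had more than 2 measured probes, so the median over probes equals their mean. The brightest probe cannot change a single-probe gene, and among the measured members the dim filter bears on Lrp1 alone. The values that moved further were Msr1 with spike-in scaling (-0.16) and Lrp1 without the filter on dim probes (0.46), where its dimmest probe enters. The number of members at least 2-fold higher was 0 with normexp, without background subtraction and with median scaling, and 1 otherwise, and the number lower was 0 throughout, but 1 at a 1.5-fold threshold. The members' median was -0.088 with spike-in scaling and -0.075 without the dim filter. In the latter setting Cd163 also enters, at 0.08, from signals of 5.55 in c-Maf-/- cells and 5.15 in c-Maf+/- cells that were not well above background. With spike-in scaling the list medians were -0.050 for the other class members, 0.16 for ligands and partners, and 0.13 for cholesterol handling, and 2 other class members were at least 2-fold lower without the dim filter (Mrc1 and Ssc4d). Over all genes, 177 were at least 2-fold higher and 216 lower as reported, 68 and 109 under normexp, 82 and 124 on unsubtracted signals, 270 and 140 with spike-ins, and 885 and 871 without the dim filter. Low signal over background limits the dim genes, and 1 array per genotype limits every value.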
